A study of Homo sapiens with 6 samples.

Results

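Imprinted genes that include NDN were compared between WT ARPE-19 cells and the POLDIP2 KO line. The set had 10 members in 6 regions of the genome, of the 37902 genes in the table. Within 15q11-q13 these were NDN, MAGEL2, SNRPN and UBE3A, and the rest were PEG3 in 19q13, PEG10 in 7q21, MEST in 7q32, H19 and IGF2 in 11p15, and DLK1 in 14q32. NDN was chosen by its value in the POLDIP2 KO libraries, so its difference between the lines is given as a description with no test. The other members were selected on their imprinted status, with earlier results of these data known. A row was found for 9 of the 10 members, and H19 was not analysed here. The test across all genes was run on genes with a mean of at least 10 normalised counts over the 6 libraries, which was met by 5 members: NDN, SNRPN, UBE3A, PEG10 and MEST. A normalised count is the number of reads assigned to a gene divided by a scaling factor of the library.

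ARPE-19, an established human line, derives from the retinal pigment epithelium (RPE), and WT is the unedited parent. POLDIP2 KO cells were ARPE-19 cells transduced with a lentivirus carrying SpCas9 and a guide RNA that targets the POLDIP2 coding sequence, selected with puromycin and expanded, with no step of cloning in the methods, so that the line may hold cells with different edits. Both lines were kept under regular maintenance and taken at day 3, with 3 biological replicates of each. Each library held 31532797 to 45795509 reads, as recovered from the steps in its values. POLDIP2 itself, the targeted gene, was at 3919, 4827 and 4798 normalised counts in the WT libraries and at 1063, 1248 and 1143 in the POLDIP2 KO libraries. Of 11 RPE markers, 8 reached a mean of 10 normalised counts, while RPE65 and TTR were listed at 0 in every library and TYR held 3 reads or fewer. The summed RPE markers ranged from 71849 to 82413 normalised counts in WT and from 67467 to 89536 in POLDIP2 KO. The keratins KRT8 and KRT18 made up most of these sums, with means of 39540 and 32125 in WT and 41129 and 31697 in POLDIP2 KO. The sums therefore say little about the other RPE markers.

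Imprinted genes are transcribed mainly from the copy inherited from 1 parent, because DNA methylation laid down in the egg or the sperm marks the imprinting centre of each cluster. In 15q11-q13, the imprinting centre lies at the shared start of SNURF and SNRPN, and MKRN3, MAGEL2, NDN and SNURF-SNRPN are transcribed from the paternal copy. Loss of the paternal genes of this region is the basis of Prader-Willi syndrome, while loss of maternal UBE3A in neurons is the basis of Angelman syndrome. Outside neurons, UBE3A is transcribed from both copies. PEG3, PEG10, MEST, IGF2 and DLK1 are paternally expressed genes of other clusters, and H19 is maternally expressed. The RNA measured here was not split by parental copy, and DNA methylation was not measured.

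The promoters of the 15q11-q13 genes are shown because the methylation that marks an imprint falls on CpG dinucleotides. Of the 10 members, 6 had an entry in the RefSeq promoter table (GRCh38.p14), each with 250 bases before and 50 bases after the start site. The sequences of NDN (chr15:23687256-23687555, minus strand) and MAGEL2 (chr15:23647818-23648117, minus strand) are printed below in the direction of transcription, with those of MKRN3 (chr15:23565424-23565723, plus strand) and of the shared SNURF-SNRPN start (chr15:24954737-24955036, plus strand). Capitals mark CpG dinucleotides.
NDN: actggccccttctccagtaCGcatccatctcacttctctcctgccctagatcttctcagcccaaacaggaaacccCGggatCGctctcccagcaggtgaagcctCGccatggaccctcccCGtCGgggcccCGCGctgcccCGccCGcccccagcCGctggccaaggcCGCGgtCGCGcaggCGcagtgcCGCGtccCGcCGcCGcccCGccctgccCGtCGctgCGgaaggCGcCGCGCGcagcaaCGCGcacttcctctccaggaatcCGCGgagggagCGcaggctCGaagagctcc
MAGEL2: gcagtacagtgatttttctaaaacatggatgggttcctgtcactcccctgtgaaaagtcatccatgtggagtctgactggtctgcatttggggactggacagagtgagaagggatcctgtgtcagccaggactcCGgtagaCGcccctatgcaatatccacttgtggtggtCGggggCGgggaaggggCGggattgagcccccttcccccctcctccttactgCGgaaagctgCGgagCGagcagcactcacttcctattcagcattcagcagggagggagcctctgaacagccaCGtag
MKRN3: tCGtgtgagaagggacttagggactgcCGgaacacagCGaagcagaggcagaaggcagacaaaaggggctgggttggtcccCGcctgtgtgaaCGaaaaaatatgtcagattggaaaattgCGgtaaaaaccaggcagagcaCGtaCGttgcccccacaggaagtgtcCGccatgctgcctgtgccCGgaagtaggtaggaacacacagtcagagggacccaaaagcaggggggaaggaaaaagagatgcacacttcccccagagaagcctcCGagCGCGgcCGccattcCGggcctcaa
SNURF: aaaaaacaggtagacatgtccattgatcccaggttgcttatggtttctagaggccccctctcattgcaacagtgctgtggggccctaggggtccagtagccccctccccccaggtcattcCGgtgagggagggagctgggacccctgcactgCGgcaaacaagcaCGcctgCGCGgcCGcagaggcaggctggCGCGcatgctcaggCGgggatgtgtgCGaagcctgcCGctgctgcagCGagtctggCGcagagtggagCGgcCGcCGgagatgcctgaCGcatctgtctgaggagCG
The NDN promoter held 35 CpG dinucleotides in 300 bases, with a GC content of 72.0%. Of all 34943 promoter windows in the table, 14.1% held as many or more, and the median was 14. The MAGEL2 window held 9 CpG, the MKRN3 window 15 and the SNURF window 18. The sequence TGCCGC, the motif of the imprint-keeping zinc finger protein ZFP57, was searched on both strands and was found 1 time in the NDN window, 2 times in the SNURF window and in neither of the others. It was found in 16.7% of all windows, and a match describes the letters only.

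NDN (ENSG00000182636, chr15:23685400-23687305, minus strand) is a single-exon gene that encodes necdin, a MAGE family protein known as a growth suppressor of neurons. It was at 205, 191 and 96.1 normalised counts in WT replicates 1, 2 and 3. In POLDIP2 KO it was at 1.23, 2.44 and 0 normalised counts. Every POLDIP2 KO library thus lay below every WT library, and all 3 held no more than 3 reads. The means were 164 ± 59.2 in WT and 1.22 ± 1.22 in POLDIP2 KO (SD, n = 3 each). Summed over the libraries, 499 reads in WT stood against 4 reads in POLDIP2 KO. The level in POLDIP2 KO was 0.792% of that in WT, with an exact 95% counting interval of 0.215% to 2.04%, and intervals of this kind cover counting error only. The difference on the scale of log2(normalised count + 1) was -6.31 and depends on the added constant, since it was -4.71 with a constant of 5. In bulk RNA, fewer cells that transcribe NDN and less NDN RNA per cell cannot be told apart.

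Per kilobase of merged exons, NDN was at 86.0 normalised counts in WT, below MEST at 551, PEG10 at 946 and SNRPN at 988, and below UBE3A at 173. NDN took rank 18 of the 27 imprinted genes that passed the filter, when ordered by this level in WT. In POLDIP2 KO the NDN level per kilobase was 0.642.

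**Figure D1:**
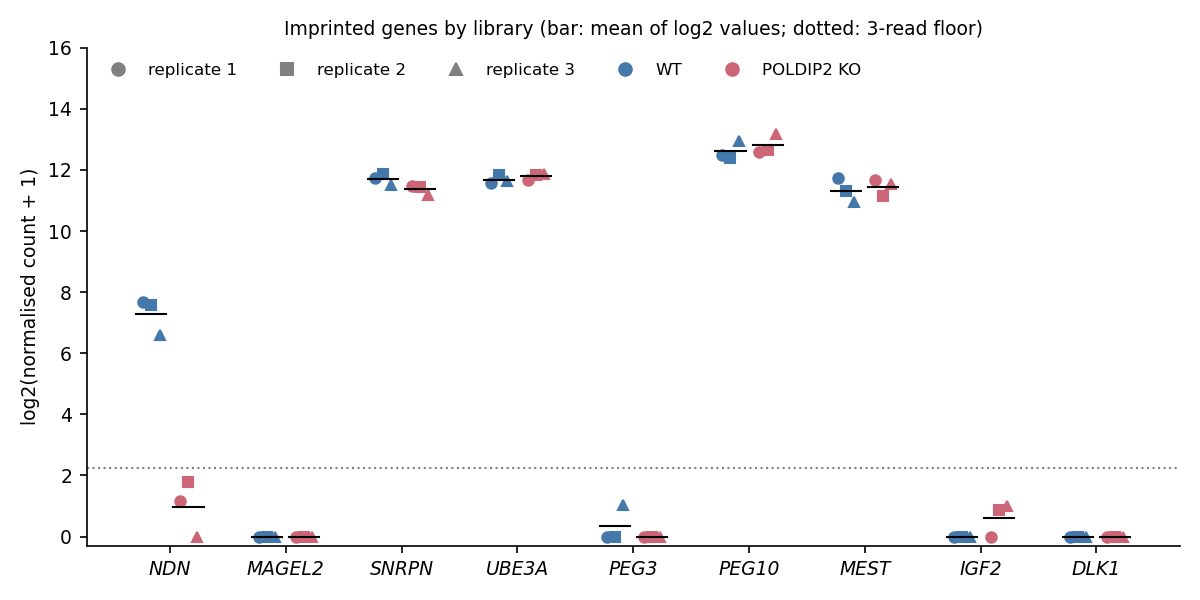
Level of each member with a row, as log2(normalised count + 1) on the vertical axis, in 3 WT (blue) and 3 POLDIP2 KO (red) libraries, with the mean of the log2 values as a bar and the largest 3-read floor of the libraries as a dotted line. NDN lies above the floor in WT and below it in POLDIP2 KO, the points of SNRPN are lower in POLDIP2 KO, and UBE3A, PEG10 and MEST overlap between the lines.

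MAGEL2 (chr15:23643549-23647867, minus strand) starts 39.4 kb from NDN and encodes another MAGE protein, which acts with TRIM27 and USP7 on the WASH complex of endosomes. It was listed at 0 in all 6 libraries. The table also lists TRIM27, a widely expressed ubiquitin ligase, at 0 in all 6 libraries, so a 0 in this table may be a failed estimate. MAGEL2 therefore gave no comparison.

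SNRPN (ENSG00000128739, chr15:24823637-24978723, plus strand) encodes SmN, a protein of the spliceosome that stands in for SmB in neurons. It was at 3426, 3755 and 2924 normalised counts in WT and at 2874, 2778 and 2325 in POLDIP2 KO. The groups did not overlap, although WT replicate 3 lay close to POLDIP2 KO replicate 1. The means were 3368 ± 419 in WT and 2659 ± 293 in POLDIP2 KO (SD, n = 3 each). The log2 difference of SNRPN was -0.34, with a standard error of 0.137 and a 95% interval of -0.66 to -0.02. By limma across 14684 genes the unadjusted p was 0.0419 and the Benjamini-Hochberg adjusted p was 0.746, so SNRPN did not pass the threshold. Each POLDIP2 KO library was also below the WT library of the same replicate number, with ratios of 0.839, 0.740 and 0.795. Blocked on replicate number, limma gave an unadjusted p of 0.00909 and an adjusted p of 0.230.

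UBE3A (chr15:25333728-25439051, minus strand) encodes the ubiquitin ligase E6AP. It was at 3046, 3642 and 3199 normalised counts in WT and at 3249, 3673 and 3756 in POLDIP2 KO. The libraries of the lines overlapped. UBE3A differed by 0.11 on the log2 scale (POLDIP2 KO minus WT), with a standard error of 0.114 and a 95% interval of -0.16 to 0.38, and limma gave an adjusted p of 0.9998.

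PEG10 (chr7:94656325-94669695, plus strand) derives from a retrotransposon and encodes a Gag-like protein needed for the placenta. It was at 5770, 5326 and 7894 normalised counts in WT and at 6161, 6493 and 9321 in POLDIP2 KO. Replicate 3 was the highest library of both lines, and the lines overlapped. For PEG10 the log2 difference was 0.21, with a standard error of 0.210 and a 95% interval of -0.29 to 0.70. Limma gave an adjusted p of 0.9998, and within replicate numbers the ratios of POLDIP2 KO to WT were 1.07, 1.22 and 1.18.

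MEST (chr7:130486171-130506465, plus strand) encodes an enzyme of the alpha/beta-hydrolase family. It was at 3382, 2525 and 1979 normalised counts in WT and at 3248, 2257 and 2984 in POLDIP2 KO. The libraries overlapped, and the ratios by replicate number were 0.960, 0.894 and 1.51, so replicate 3 alone was higher in POLDIP2 KO. For MEST the log2 difference was 0.12, with a standard error of 0.224 and a 95% interval of -0.41 to 0.65, and without WT replicate 3 it was -0.06.

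PEG3 (chr19:56810077-56840728, minus strand), a zinc finger gene, held 1 read in WT replicate 3 and was listed at 0 elsewhere. IGF2 (chr11:2129112-2158391, minus strand), a fetal growth factor, held 1 read in POLDIP2 KO replicates 2 and 3 and was listed at 0 elsewhere. DLK1 (chr14:100725705-100738224, plus strand), a membrane protein that holds back adipocyte differentiation, was listed at 0 in all 6 libraries. Together with MAGEL2, 4 members were thus at 3 reads or fewer in every library, and no fold was computed for them.

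Of the 4 tested members other than NDN, 0 were called by limma at an adjusted p of 0.05 with a fold change of 1.5, and 1, SNRPN, had an unadjusted p under 0.05. The same thresholds called 25 of 14684 tested genes, 0.17%, and 6.48% of all tested genes had an unadjusted p under 0.05. SNRPN was also the only 1 of the 4 in which every POLDIP2 KO library lay below every WT library, a pattern held by 5.44% of all tested genes. Blocked on replicate number, 2 of the 4 had an unadjusted p under 0.05, SNRPN at 0.00909 and PEG10 at 0.0449, where 11.1% of all tested genes did. PEG10 was higher in POLDIP2 KO in all 3 pairs, and its blocked adjusted p was 0.434 by limma. By edgeR and DESeq2 on the recovered reads, 0 of the 4 were called, and DESeq2 called 1.69% of all tested genes. The label of biological replicate is the only statement on how the libraries are separate. The p-values measure the spread between libraries, not between separately made lines. The paper describes 1 POLDIP2 KO line and no WT line given a control virus. Loss of POLDIP2 therefore cannot be told apart from transduction, selection or expansion of the line. An exact permutation test of 3 against 3 libraries cannot go below 0.1.

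**Figure D2:**
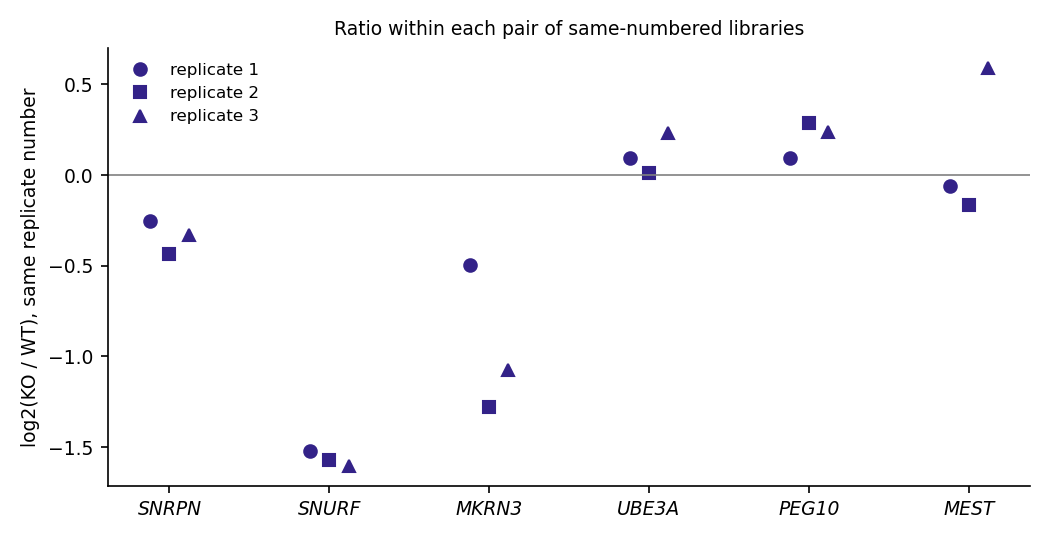
Ratio of POLDIP2 KO to WT between libraries of the same replicate number, as log2 on the vertical axis, for 3 paternally expressed genes of 15q11-q13 and for UBE3A, PEG10 and MEST; each marker is 1 replicate number. SNRPN, SNURF and MKRN3 lie below 0 in all 3 pairs, UBE3A and PEG10 lie above 0 in all 3, and MEST lies on both sides.

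The other paternally expressed genes of 15q11-q13 were also fitted lower in POLDIP2 KO where they could be tested, and none passed the threshold. SNURF, an upstream reading frame on the SNRPN transcript, was at 52.9, 53.2 and 27.1 normalised counts in WT and at 18.5, 17.9 and 8.94 in POLDIP2 KO. Every POLDIP2 KO library was below every WT library. The log2 difference of SNURF was -1.50, with a standard error of 0.474, an unadjusted p of 0.0158 and an adjusted p of 0.528 by limma. SNURF, SNRPN and ENSG00000214265 overlap on the same strand, so the assignment of reads among them is uncertain. Summed over these 3 entries, WT libraries held 3444 ± 446 normalised counts and POLDIP2 KO libraries 2695 ± 301 (SD, n = 3 each). Of the sum of SNURF and SNRPN, SNURF took 1.52%, 1.40% and 0.920% in WT and 0.638%, 0.641% and 0.383% in POLDIP2 KO.

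MKRN3, a ring finger protein that restrains the onset of puberty, lies on the other side of NDN from SNRPN, 0.122 Mb from its start. It was at 125, 65.2 and 125 normalised counts in WT and at 88.6, 26.9 and 59.6 in POLDIP2 KO. The lines overlapped, because WT replicate 2 was below POLDIP2 KO replicate 1, while each POLDIP2 KO library was below the WT library of its own number. For MKRN3 the log2 difference was -0.93, with a standard error of 0.495 and an adjusted p of 0.923 by limma, and it ranged from -1.31 to -0.47 with 1 library left out. NPAP1, a nuclear pore associated gene between NDN and SNRPN, missed the filter with 6, 11 and 4 reads in WT and 8, 3 and 5 in POLDIP2 KO, which overlap.

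Around NDN, 40 protein-coding genes with a row within 6 Mb of its start were examined, and 14 were tested. Leaving out NDN, 0 of 13 were called by limma and 2 had an unadjusted p under 0.05, beside 0.17% and 6.48% of all tested genes. A fitted log2 difference within 0.5 of 0 was held by 11. The 2 were SNRPN and SNURF, which overlap on the same strand and are not independent. In each of them every POLDIP2 KO library was below every WT library, a pattern held by 5.44% of all tested genes. NIPA1, NIPA2, CYFIP1 and HERC2 had log2 differences of -0.04, -0.07, 0.02 and -0.01. TUBGCP5, a gamma-tubulin complex gene, was at 409, 440 and 439 normalised counts in WT and at 466, 612 and 459 in POLDIP2 KO. In TUBGCP5 every POLDIP2 KO library was above every WT library, a pattern held by 5.46% of all tested genes, with a log2 difference of 0.24 and an adjusted p of 0.9998 by limma.

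Beyond these members, 61 further imprinted names were looked up, of which 41 had a row, 20 were not analysed here and 22 were tested. Limma, edgeR and DESeq2 each called 0 of the 22. By limma 2 had an unadjusted p under 0.05, SNURF and TFPI2, both fitted lower, beside 6.48% of all tested genes. The median log2 difference of the 22 was 0.04, beside 0.00 over all tested genes, with 12 fitted higher and 10 lower. TFPI2, a protease inhibitor of the extracellular matrix from the cluster of PEG10, was at 890, 616 and 1085 normalised counts in WT and at 582, 617 and 522 in POLDIP2 KO. Its lines overlapped at replicate 2, with a log2 difference of -0.55 and an adjusted p of 0.714. PLAGL1, a zinc finger gene of 6q24, had the highest fitted value among the 22, with a log2 difference of 0.35 and a 95% interval of -0.67 to 1.38 that spans 0.

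In the 7q21 cluster, SGCE, a sarcoglycan gene that shares its promoter region with PEG10, was at 1216, 1404 and 1308 normalised counts in WT and at 1528, 1517 and 1474 in POLDIP2 KO. Every POLDIP2 KO library of SGCE was above every WT library, a pattern held by 5.46% of all tested genes. The log2 difference of SGCE was 0.20, with an adjusted p of 0.902 by limma. PPP1R9A in the same cluster had a log2 difference of -0.02. Next to MEST, CPA4 had a log2 difference of 0.14. GNAS in 20q13 and GRB10 in 7p12, which use different alleles in different transcripts or tissues, had log2 differences of -0.01 and -0.02.

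By parental origin, the 26 tested imprinted genes other than NDN held 12 listed as paternal, 10 listed as maternal and 4 listed as varying. Among the paternal genes 7 were fitted higher and 5 lower, with a median log2 difference of 0.10, and among the maternal genes 6 were fitted higher and 4 lower, with a median of 0.04. By locus, 15q11-q13 without NDN held 4 tested genes with a median of -0.64. The 3 listed as paternal were fitted lower, and UBE3A, listed as maternal, was fitted higher. Of the 3, SNRPN and SNURF overlap on the same strand and are not independent. UBE3A is transcribed from both copies outside neurons, and its log2 difference was 0.11 with an unadjusted p of 0.356 by limma. A split by parental origin at this locus was not tested. Over all 26, 23 were within 0.5 of 0 on the log2 scale. The 3 outside it were SNURF, MKRN3 and TFPI2. A further 23 imprinted names had a row below the filter, and 17 of them held 3 reads or fewer in every library.

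**Figure D3:**
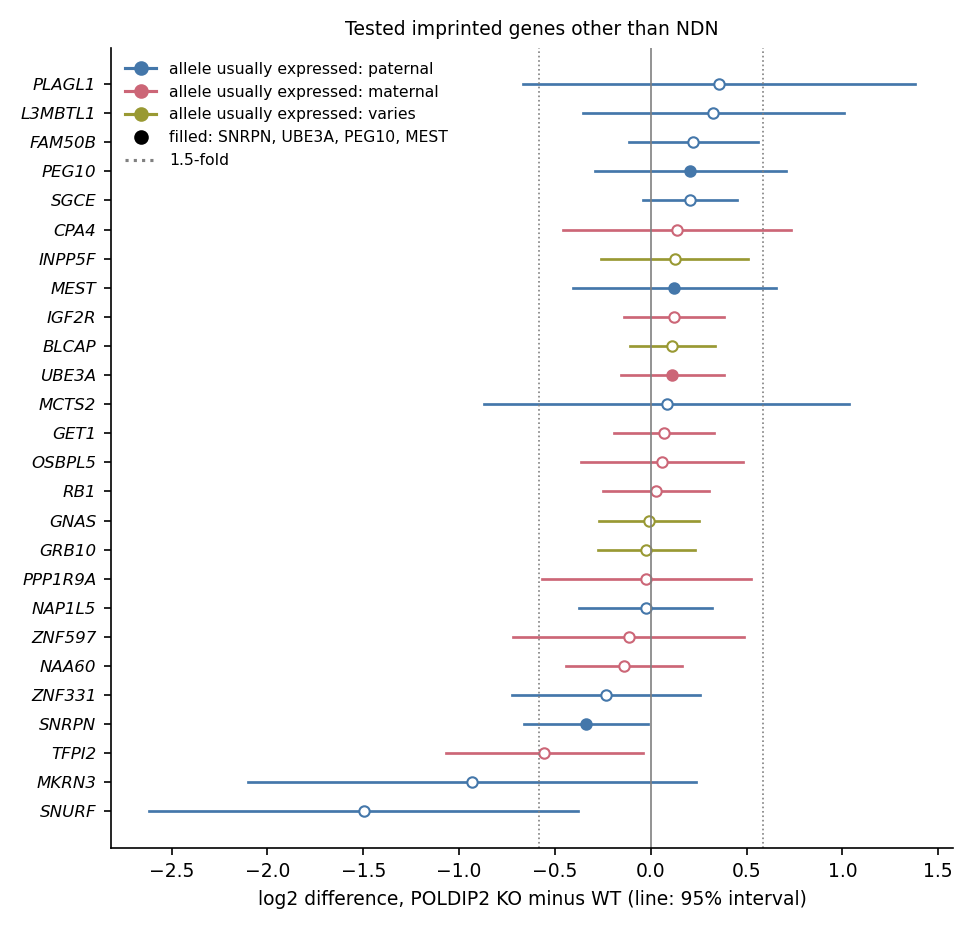
Log2 difference of POLDIP2 KO minus WT with its 95% interval for the 26 tested imprinted genes other than NDN, ordered by size. Colours give the listed parental allele, and dotted lines mark a fold change of 1.5. SNURF, MKRN3 and TFPI2 lie lowest, and 23 genes lie within 0.5 of 0.

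Of 15 genes that set or keep imprints, 11 were tested, with a median log2 difference of -0.01. Limma, edgeR and DESeq2 called 0 of the 11 and limma gave 0 with an unadjusted p under 0.05, which says little about 11 genes where limma called 0.17% of all tested genes and 6.48% had such a p. SMCHD1, a chromatin protein that helps silence imprinted clusters and the inactive X, had a log2 difference of 0.23. DNMT1, which copies DNA methylation at replication, was at 4746, 3975 and 5479 normalised counts in WT and 4644, 5595 and 4798 in POLDIP2 KO, which overlap. DNMT3B, a methyltransferase that sets new methylation, had a log2 difference of -0.19, and SETDB1, a histone methyltransferase recruited by zinc finger proteins, one of 0.16. EHMT2, another histone methyltransferase, was at 118 in WT replicate 1 and 178 in POLDIP2 KO replicate 1 and listed at 0 in the other 4 libraries. ZFP57 was listed at 0 in every library. As for TRIM27, the values of 0 for EHMT2 and ZFP57 may be failed estimates, and EHMT2 was among the 11 tested.

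Necdin and MAGEL2 belong to the type II MAGE proteins, many of which pair with ubiquitin ligases. Of 10 further genes of this group, 9 were tested, with a median log2 difference of -0.05. Limma called 0 of them, beside 0.17% of all tested genes. The only 1 with an unadjusted p under 0.05 by limma was MAGEH1, beside 6.48% of all tested genes. It was at 341, 335 and 220 normalised counts in WT and 124, 158 and 94.3 in POLDIP2 KO. Every POLDIP2 KO library of MAGEH1 was below every WT library, a pattern held by 5.44% of all tested genes. Its log2 difference was -1.25, with a standard error of 0.275, and its adjusted p was 0.233 by limma, 0.274 by edgeR and 0.00819 by DESeq2. DESeq2 called 1 of the 9, MAGEH1, beside 1.69% of all tested genes. MAGED1, which like necdin binds the p75 neurotrophin receptor, had a log2 difference of 0.20. MAGED4, TRO and NSMCE3, the last a subunit of the SMC5/6 complex encoded in 15q13, had log2 differences of 0.36, -0.32 and -0.45.

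The partners of MAGEL2 on endosomes gave 10 tested genes of 11, with a median log2 difference of 0.07. Limma called 0 of the 10, beside 0.17% of all tested genes. WASHC5, the strumpellin subunit of the WASH complex, was at 1734, 1425 and 1587 normalised counts in WT and 2127, 2234 and 2253 in POLDIP2 KO. Every POLDIP2 KO library of WASHC5 was above every WT library, a pattern held by 5.46% of all tested genes. The log2 difference of WASHC5 was 0.48, with an adjusted p of 0.253 by limma and 0.0167 by DESeq2. Its DESeq2 log2 difference of 0.479 was below the fold change threshold. DESeq2 therefore called 0 of the 10, beside 1.69% of all tested genes. WASHC1, WASHC4 and the retromer gene VPS26A had log2 differences of 0.21, 0.09 and 0.11. The 7 Sm proteins that form the ring SmN takes part in had log2 differences of -0.03 to 0.08. Limma called 0 of the 7, beside 0.17% of all tested genes. SNRPE, SNRPD1, SNRPD2 and SNRPF lay at 0.08, 0.05, 0.03 and -0.03.

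Of 14 genes that bind, receive or regulate insulin-like growth factors, the group IGF2 acts in, 12 were tested. By limma 0 were called and 3 had an unadjusted p under 0.05, beside 0.17% and 6.48% of all tested genes. Blocked on replicate number, limma gave 6 of the 12 an unadjusted p under 0.05, where 11.1% of all tested genes had one, and called 0. DESeq2 called 1 of the 12, IGFBP2, beside 1.69% of all tested genes. The median log2 difference was 0.12. IGFBP2, an IGF-binding protein, was at 221, 195 and 181 normalised counts in WT and 122, 51.3 and 71.5 in POLDIP2 KO. Every POLDIP2 KO library of IGFBP2 was below every WT library, a pattern held by 5.44% of all tested genes. Its log2 difference was -1.36, with an adjusted p of 0.292 by limma and 0.0453 by DESeq2. IGFBP1 and IGFBP6, with log2 differences of 1.03 and 0.29, had adjusted p-values of 0.553 and 0.699. IGFBP5 and the RNA-binding protein gene IGF2BP3 had log2 differences of -0.78 and 0.65, and their lines overlapped. By replicate number the ratios of POLDIP2 KO to WT were 0.764, 0.329 and 0.792 for IGFBP5. For IGF2BP3 they were 1.69, 1.41 and 1.63. Their blocked adjusted p-values by limma were 0.381 and 0.0961. With 1 library left out, IGFBP5 ranged from -1.76 to -0.02 and IGF2BP3 from 0.28 to 0.96. IGF2R, the receptor that clears IGF2, had a log2 difference of 0.12 with a 95% interval of -0.14 to 0.38.

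Relatives of PEG10 among the retrotransposon-derived Gag-like genes gave 9 tested genes of 11, with a median log2 difference of 0.18. Limma called 0 of the 9, beside 0.17% of all tested genes. ARC, a synaptic gene of this kind, was at 53.8, 45.2 and 33.4 normalised counts in WT and 33.2, 16.3 and 13.9 in POLDIP2 KO. The highest POLDIP2 KO library was just under the lowest WT library. A gap in this direction was held by 5.44% of all tested genes. The log2 difference of ARC was -1.10, with an adjusted p of 0.746 by limma. RTL3, RTL9 and RTL6 had log2 differences of 0.65, 0.38 and 0.24, each with overlap, and the paternally expressed RTL1 was listed at 0.

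The genes whose levels followed NDN most closely over the 6 libraries were SLC19A2, CAND2, PLAAT1, HS6ST2 and TXLNGY, with Pearson's r of 0.998, 0.994, 0.987, 0.986 and 0.986. All share the difference between the lines by which NDN was chosen, so these values are descriptive. SLC19A2, a thiamine transporter, was at 956, 952 and 876 normalised counts in WT and 659, 698 and 620 in POLDIP2 KO. HS6ST2, a heparan sulfate sulfotransferase on the X chromosome, was at 33.1, 30.1 and 15.7 in WT and listed at 0 in POLDIP2 KO. TXLNGY, on chromosome Y, was at 27.4, 31.1 and 18.8 in WT and also listed at 0 in POLDIP2 KO. NDN was 1 of 5 genes with 3 reads or fewer in every POLDIP2 KO library and at least 30 reads in every WT library, of which 2 lie on chromosome Y. Their part in the NDN result was not tested. The reverse pattern was held by 1 gene, CTSS, a lysosomal protease.

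NDN is known from neurons, and of 4 neuronal markers only SYT1 reached a mean of 10 normalised counts. The summed neuronal markers ranged from 381 to 782 normalised counts in WT and from 498 to 562 in POLDIP2 KO, and these ranges overlap. SNAP25 and STMN2 held 3 reads or fewer in every library. The summed leukocyte markers ranged from 0 to 3.01 in WT and from 4.92 to 9.93 in POLDIP2 KO. Of these 3 markers, 0 reached a mean of 10 normalised counts, so their sums rest on a few reads. The mesenchymal sums, from 134814 to 169205 and from 142838 to 189106, overlapped. VIM made up most of the mesenchymal sums, with means of 146500 in WT and 158427 in POLDIP2 KO.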

How the data were processed

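Polyadenylated RNA of 3 WT and 3 POLDIP2 KO libraries was sequenced as stranded single-end reads. The deposited signal is a normalised count per gene, which the authors made with Salmon 1.8, tximport and DESeq2 1.34.0 on GRCh38. The annotation release is not given in the sources used here. IDs were named with GENCODE release 44 (34152 of 37902, and 14 rows of lncRNA genes), and 0 columns were left out. Reads were recovered by dividing the values of a library by the smallest one above 0. This takes the smallest value as 1 read. All values came out whole within 0.001 (100%), with a largest distance of 0.000345.

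Limma 3.58.1 in R 4.3.3 (trend) was run on log2(normalised count + 1) for the 14684 genes whose mean over the 6 libraries reached 10, with Benjamini-Hochberg adjustment over all of them, an adjusted p of 0.05 and a fold change of 1.5. Such differences understate the change of low genes. Alternatives were pseudocounts of 0.5 and 5, a minimum mean of 50 or none, quantile normalisation, a replicate block, edgeR and DESeq2 on recovered reads, and leaving out each library. Values centred within each line correlated at 0.315, 0.137 and 0.129 between same-numbered libraries, above 0.1, and at -0.259 to 0.147 otherwise. WT replicate 3 with POLDIP2 KO replicate 2, at 0.147, exceeded the same-numbered values of replicates 2 and 3. Pairing by number is thus uncertain, and no label states it. The main fit had no block, and the replicate block and the ratios by number are given as an alternative. The code was tested on simulated data. Figures used matplotlib 3.10.9.

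The members and lists were chosen with earlier results of these data known. Named genes are the members, list members, of each list the genes called and the 4 with the largest log2 difference, and the 5 genes most correlated with NDN. The SNURF-SNRPN sum was added after its values were seen. Within the region around NDN, 1 gene is not reported here.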

Additional observations from a re-analysis of the deposited data

How the results depend on the processing

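The count of all genes called was 25, and moved to 16 with a mean of at least 50, to 248 with DESeq2 on recovered reads, and to 0 to 5 with 1 library left out. It was 0 without WT replicate 2, WT replicate 3, POLDIP2 KO replicate 2 or POLDIP2 KO replicate 3, 5 without WT replicate 1 and 4 without POLDIP2 KO replicate 1. The counts of members other than NDN called, and of other imprinted genes called, were 0 under every alternative run. With the replicate block 30 of all genes were called, SNRPN kept an adjusted p above the threshold at 0.230, and the block changed no other call among the genes named from the lists. The log2 difference of NDN was -4.71 with a pseudocount of 5 and ranged from -6.71 to -5.82 with 1 library left out. Over the same omissions SNRPN ranged from -0.44 to -0.25, UBE3A from 0.06 to 0.19, PEG10 from 0.02 to 0.38 and MEST from -0.0636 to 0.323, with MEST reversed without WT replicate 3. Genes near 0 that changed sign were APBA2 (-0.0218 with edgeR and -0.0208 with DESeq2, -0.394 to 0.395 with 1 library left out), EHMT2 (-2.30 to 2.50), PLAGL1 (-0.105 to 0.685), SNRPD1 (-0.0630 to 0.115), SNRPD2 (-0.0289 to 0.126), SNRPE (-0.00564 to 0.165), SNRPF (-0.0997 to 0.0624) and WASHC1 (-0.0192 to 0.527). IGFBP2 and MAGEH1 were past the threshold with DESeq2. The cause of these shifts was not tested. MAGEL2, PEG3, IGF2 and DLK1 held 3 reads or fewer in every library and gave no comparison.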

Other observations

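Several imprinted genes below the filter were uneven between replicates. CMKLR2 held 35 reads in WT replicate 1 and was listed at 0 in the other 5 libraries. KCNQ1 held 0, 19 and 1 reads in WT and 1, 3 and 22 in POLDIP2 KO. SLC22A18, next to KCNQ1 in 11p15, held 1, 17 and 8 reads in WT and 13, 6 and 7 in POLDIP2 KO. DIRAS3, a paternally expressed growth suppressor in 1p31, held 4, 7 and 3 reads in WT and 1, 10 and 1 in POLDIP2 KO. In none of these genes did the lines separate without overlap.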
